A study of Rattus norvegicus with 15 samples.

Results

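The genes described here carry the interferon response and the presentation of antigens in rat liver. They are the genes of the major histocompatibility complex, which is called RT1 in the rat, the Ifit genes, and a list of known partners and targets of interferon such as Tap1, B2m, Irf7, Gbp2 and Cxcl9. A gene was taken when a probe set on the array carried its symbol and no other, and its brightest such probe set stood for it. This gave 58 genes of the 14217 with a probe set of 1 symbol, among them 18 RT1 genes, 3 Ifit genes and 4 Ifitm genes. Of 35 genes listed by name, 33 were found in this way, and Gbp5 and Ifi47 were not analysed here. The 58 genes had 81 probe sets, and 16 genes had more than 1. A filter that kept a gene when at least 5 of its 15 values exceeded 6.10, the median log2 value of the whole table, left 52 of them for testing, and Ciita, RT1-N3, RT1-A3, Mx1, Ifit3 and Ifitm10 were not tested.

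Type I interferons act through transcription factors that include Stat2 and Irf9 and bind a DNA element called ISRE in front of antiviral genes. Interferon gamma acts on an element called GAS and through Irf1, and raises the genes that present antigen. In class I presentation the immunoproteasome (Psmb8, Psmb9, Psmb10 and the activators Psme1 and Psme2) cuts proteins into peptides, the transporter Tap1 and Tap2 moves them into the endoplasmic reticulum, and Tapbp loads them on a heavy chain that is bound to B2m. In class II presentation, which in liver is known mainly from Kupffer cells and other antigen-presenting cells, pairs of alpha and beta chains travel with the invariant chain Cd74 and exchange it for a peptide with the help of RT1-DMa and RT1-DMb.

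Livers came from male rats of the outbred Sprague Dawley stock, 7 weeks old when the study began, on a high-fat diet (59% of energy). All were dosed by gavage once a day over 6 weeks. There were 3 groups of 5 samples, which received either vehicle (0.5% methylcellulose) or 10 or 30 mg/kg of PF-04923503. The labels call this compound an ACC inhibitor, and ACC (acetyl-CoA carboxylase) makes malonyl-CoA for fatty acid synthesis. Whether each sample is a separate rat is not in the labels, so the p-values hold for the spread among these samples alone, which may be technical.

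Each sample was read on 1 Affymetrix array, and the deposited values are on a log2 scale with array medians between 6.08 and 6.12. All 9 hepatocyte markers passed the filter, with means from 11.16 to 15.36, as did 10 of 10 macrophage markers. Of lymphocyte markers 3 of 12 passed and of dendritic cell markers 0 of 4, with means from 4.68 to 5.78 for the latter. In bulk tissue, fewer cells of a type and less RNA per cell cannot be told apart. Vehicle sample 1 stood apart: it alone was low on RT1-A, and 4 other probe sets split the arrays in the same way, among them Cyp3a9, a cytochrome P450, Ccnd1, a cyclin, and one assigned to both RT1-A2 and RT1-A3 with a gap of 6.23 log2 units. Those of A2m, a protease inhibitor, and Alox15, a lipoxygenase, split the arrays the opposite way, with vehicle sample 1 alone high. Where this sample turned the sign of a difference given below, the value without it is given too.

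In 4 of the 58 genes the arrays fell into a high and a low class with nothing between them. The pattern was called where the largest gap between neighbouring values of the 15 sorted arrays was at least 2 log2 units, a 4-fold step. The 4 genes were Ubd, Fam111a, RT1-A and RT1-N2, or 6.90% of the 58, where the same rule took 17 of all 14217 genes, or 0.12%, and 0.168% of those that passed the filter. The members were chosen with earlier results of these data known. The higher share among them may come from that choice and is not a test. A second probe set of RT1-Bb met the rule too, so that 5 of the 58 genes had it on some probe set. Counted by probe set, 5 of their 81 met it, against 0.0838% of all probe sets. Just outside the threshold lay the brightest probe sets of RT1-Bb (gap 1.77), RT1-CE12 (1.20) and RT1-Ba (1.17). High and low arrays are described and not compared by a test, since the measured values themselves define them.

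Ubd, which encodes a ubiquitin-like modifier that marks proteins for the proteasome, was low in 4 treated samples and in 0 of 5 vehicle samples. Its values (probe set 1368762_at) were 11.65, 10.75, 10.87, 10.05 and 11.52 in vehicle samples 1 to 5, 10.59, 10.88, 6.01, 10.18 and 5.64 at 10 mg/kg and 6.48, 11.20, 11.19, 10.35 and 6.32 at 30 mg/kg. The 11 high arrays lay between 10.05 and 11.65 and the 4 low arrays between 5.64 and 6.48, an 11.9-fold gap. The low arrays were 10 mg/kg samples 3 and 5 and 30 mg/kg samples 1 and 5, so that 3 of 5 samples at each dose stayed within the range of vehicle. Vehicle averaged 10.97 ± 0.65, 10 mg/kg 8.66 ± 2.60 and 30 mg/kg 9.11 ± 2.50 (SD, n = 5 each), and the groups overlapped. The vehicle mean was 4.95-fold that at 10 mg/kg (95% confidence interval 0.839 to 29.3; limma, adjusted p = 0.423) and 3.63-fold that at 30 mg/kg (0.614 to 21.4; adjusted p = 0.463). The log2 difference at 30 mg/kg, -1.86, was -1.20 without 30 mg/kg sample 1 and -1.16 without 30 mg/kg sample 5. Among the 58 genes, Ubd lies between RT1-M3-1 and RT1-N2 in gene order on chromosome 20. Of its 4 low arrays, 10 mg/kg sample 5 was also low for RT1-N2 and 0 were low for RT1-A.

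Fam111a, known from human cells as a nuclear protease that restricts some viruses, was split within every group. Its values (probe set 1371970_at) were 8.79, 8.72, 4.60, 9.50 and 3.73 in vehicle samples 1 to 5, 9.65, 9.59, 4.39, 4.07 and 8.65 at 10 mg/kg and 8.53, 4.35, 3.83, 8.94 and 4.59 at 30 mg/kg. The 8 high arrays lay between 8.53 and 9.65 and the 7 low arrays between 3.73 and 4.60, a 15.2-fold gap. The number of high arrays was 3 of 5 in vehicle, 3 of 5 at 10 mg/kg and 2 of 5 at 30 mg/kg. Its log2 difference to vehicle was 0.20 for 10 mg/kg (limma, adjusted p = 0.969) and -1.02 at 30 mg/kg (adjusted p = 0.779). With 1 sample left out the first ran from -0.63 to 1.00 and the second from -1.86 to -0.41. Fam111a lies on chromosome 1, apart from the RT1 region, and no other probe set with such a gap divided the arrays as it did.

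RT1-A, a classical class I heavy chain that presents peptides to CD8 T cells, was low in a single sample. Its values (probe set 1370429_at) were 6.08, 9.95, 10.19, 9.62 and 10.09 in vehicle samples 1 to 5, 9.30, 10.12, 10.11, 9.18 and 9.51 at 10 mg/kg and 10.10, 9.38, 10.01, 9.48 and 10.05 at 30 mg/kg. Vehicle sample 1 had 6.08, an 8.62-fold gap below the other 14 arrays, which lay between 9.18 and 10.19. That sample also set the sign of the group difference. Against vehicle, the log2 difference was 0.46 for 10 mg/kg and 0.62 for 30 mg/kg (limma, adjusted p = 0.777 and 0.637), and without vehicle sample 1 it was -0.32 and -0.16 (adjusted p = 0.520 and 0.737).

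RT1-N2, a class I gene outside the classical set, was low in 1 sample of each group. Its values (probe set 1387839_at) were 3.92, 9.70, 8.48, 8.54 and 9.63 in vehicle samples 1 to 5, 9.19, 10.11, 9.05, 9.18 and 5.42 at 10 mg/kg and 10.11, 5.15, 8.52, 8.42 and 8.53 at 30 mg/kg. The 3 low arrays, vehicle sample 1, 10 mg/kg sample 5 and 30 mg/kg sample 2, lay between 3.92 and 5.42, and the 12 high arrays between 8.42 and 10.11. The values of RT1-N2 spanned 72.8-fold over the 15 arrays, and its group means were 8.05 ± 2.38, 8.59 ± 1.82 and 8.14 ± 1.82 (SD, n = 5 each). On the log2 scale 10 and 30 mg/kg differed from vehicle by 0.54 and 0.09. Without vehicle sample 1 both signs turned, to -0.50 and -0.94, and at 30 mg/kg the sign also turned when 30 mg/kg sample 1, 3 or 5 was left out (-0.40, -0.0036 and -0.0076).

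RT1-Bb, the beta chain of the class II molecule RT1.B, had 2 probe sets that ordered the samples differently. The dimmer one (probe set 1371033_at) gave 8.81, 9.02, 4.68, 4.84 and 4.50 in vehicle samples 1 to 5, 7.97, 4.90, 4.71, 8.32 and 4.77 at 10 mg/kg and 4.67, 8.67, 4.85, 4.84 and 4.70 at 30 mg/kg. It was high, between 7.97 and 9.02, in 5 arrays (vehicle samples 1 and 2, 10 mg/kg samples 1 and 4, and 30 mg/kg sample 2) and low, between 4.50 and 4.90, in the other 10. The brightest probe set gave 5.38, 7.86, 7.60, 7.31 and 8.62 in vehicle samples 1 to 5, 7.30, 8.64, 7.73, 7.23 and 7.86 at 10 mg/kg and 8.60, 7.15, 8.27, 8.33 and 8.64 at 30 mg/kg. On this one vehicle sample 1 was the lowest of all 15 arrays, and the lowest at each dose were samples that the other probe set read as high. Set against vehicle, it differed by 0.39 on the log2 scale at 10 mg/kg and by 0.84 at 30 mg/kg (limma, adjusted p = 0.402 at 30 mg/kg). Without vehicle sample 1 these were -0.10 and 0.35.

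**Figure D1:**
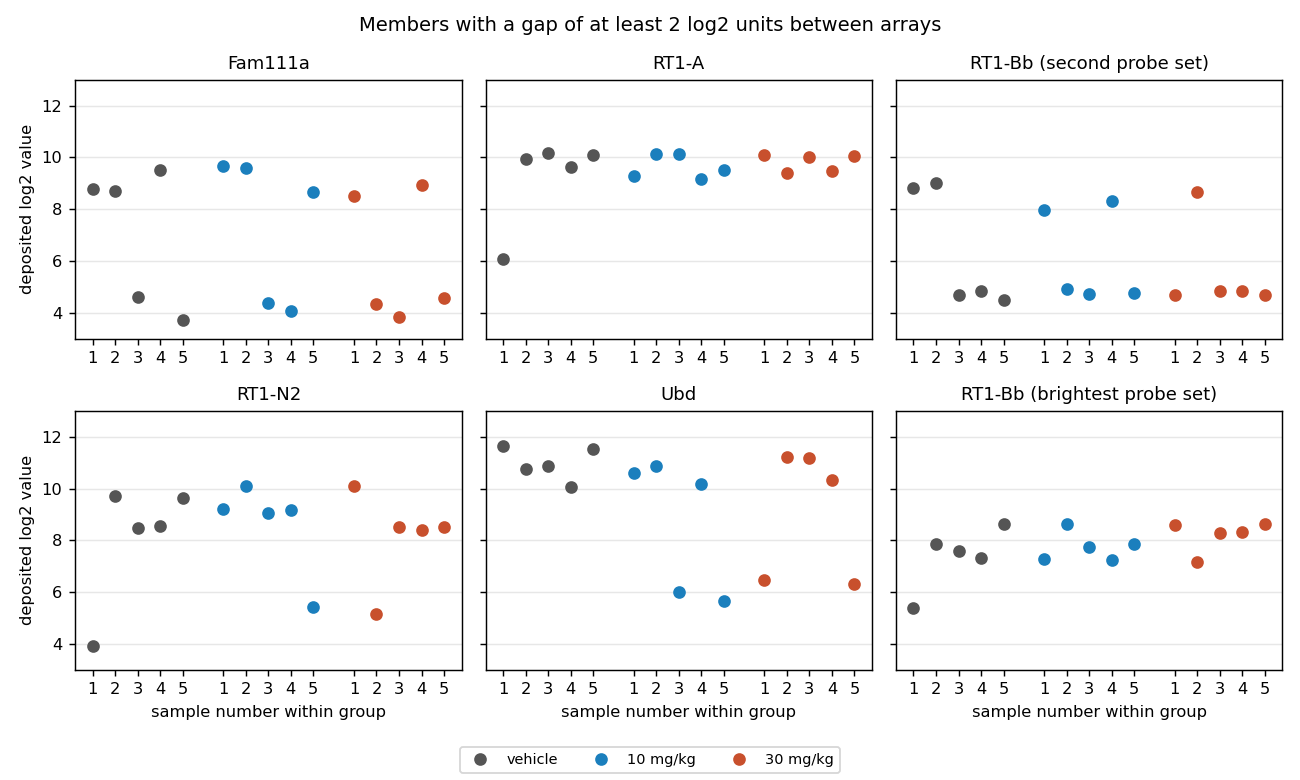
Deposited log2 value of each array (vertical axis) by sample number within vehicle, 10 mg/kg and 30 mg/kg, each point 1 array, for the probe sets with a gap of at least 2 log2 units and for the brightest RT1-Bb probe set. Ubd is low in 4 treated arrays only, Fam111a in 7 arrays over all groups, RT1-A in vehicle sample 1 and RT1-N2 in 1 array of each group.

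Other RT1 genes showed smaller steps over partly the same samples, and these were picked after their values were seen. RT1-CE16, a class I gene, had 7.26 in vehicle sample 1, 6.69 and 7.33 in 10 mg/kg samples 1 and 4 and 7.30 in 30 mg/kg sample 2, and at most 6.33 in the other 11 arrays. These are 4 of the 5 arrays in which the dimmer RT1-Bb probe set was high. The dimmer probe set of RT1-Db1, the beta chain of RT1.D, had 4.98, 5.01, 4.31, 4.37 and 4.60 in those 5 arrays and at most 4.18 in the other 10. In the opposite direction, RT1-T24-4, a class I gene, had 7.72 in vehicle sample 1, 8.93 in 10 mg/kg sample 5 and 8.51 in 30 mg/kg sample 2, the same 3 arrays that were low for RT1-N2, and at least 9.67 elsewhere.

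RT1-CE12, a class I gene just outside the threshold, had values of 10.19, 11.77, 11.87, 11.74 and 12.45 in vehicle samples 1 to 5, 11.58, 12.50, 11.95, 11.60 and 11.41 at 10 mg/kg and 12.10, 11.39, 12.16, 12.30 and 12.26 at 30 mg/kg. Vehicle sample 1 was lowest in vehicle and over all arrays, and 30 mg/kg sample 2 was lowest at 30 mg/kg. Genes of this family share long stretches of sequence, so a probe set can read more than 1 of them and the values of single RT1 genes are uncertain, and 7 probe sets that carried several symbols with a member among them were not used. On the RefSeq annotation (GRCr8), 17 RT1 members have a gene entry, and 23 of the 58 genes lie on chromosome 20. Beside the RT1 genes these are Ubd, Tap1, Tap2, Psmb8, Psmb9 and Tapbp, and Tap2, Psmb8, Tap1 and Psmb9 follow each other there directly, next to RT1-Bb and RT1-DMb on either side with 1 gene between RT1-Bb and Tap2.

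With or without such a pattern, most of the genes varied widely between samples of the same group. Of the 52 tested genes, 35, or 67.3%, were in the top 10% of all 9540 genes by the residual SD around group means, which holds 10% of all genes by construction. The 35 include Ubd, Fam111a, RT1-A and RT1-N2. A wide spread was not limited to the members. In vehicle and at 10 and 30 mg/kg, the macrophage markers Adgre1 and Cd68 had SDs of 0.32, 0.39 and 0.49 and of 0.29, 0.32 and 0.48. The marker Cd163 had smaller SDs of 0.19, 0.22 and 0.22 (n = 5 each). Only B2m, Psme1, Psme2 and Stat2, 4 of the 52, lay below the median of all genes. B2m, the light chain of every class I molecule, had values of 14.12, 14.30, 14.28, 14.09 and 14.25 in vehicle samples 1 to 5, 14.23, 14.19, 14.20, 14.24 and 14.20 at 10 mg/kg and 14.23, 14.25, 14.18, 14.13 and 14.24 at 30 mg/kg. On this brightest probe set the residual SD of B2m was 0.0628, and its 15 values spanned 1.16-fold. The dimmer B2m probe set ran more widely, from 11.65 to 12.12. Psme1, a subunit of the proteasome activator, had 12.18, 12.20, 12.04, 12.14 and 12.03 in vehicle samples 1 to 5, 12.09, 12.17, 12.08, 12.03 and 12.07 at 10 mg/kg and 12.12, 12.11, 12.10, 12.23 and 11.99 at 30 mg/kg, a span of 1.18-fold. Stat2, which carries the signal of type I interferon to the nucleus, had 9.37, 9.28, 9.33, 9.19 and 9.60 in vehicle samples 1 to 5, 9.41, 9.42, 9.33, 9.30 and 9.22 at 10 mg/kg and 9.34, 9.50, 9.33, 9.22 and 9.32 at 30 mg/kg. It spanned 1.33-fold, while Mx2, a dynamin-like antiviral GTPase, spanned 3.47-fold and Isg20, an antiviral exonuclease, 4.92-fold.

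**Figure D2:**
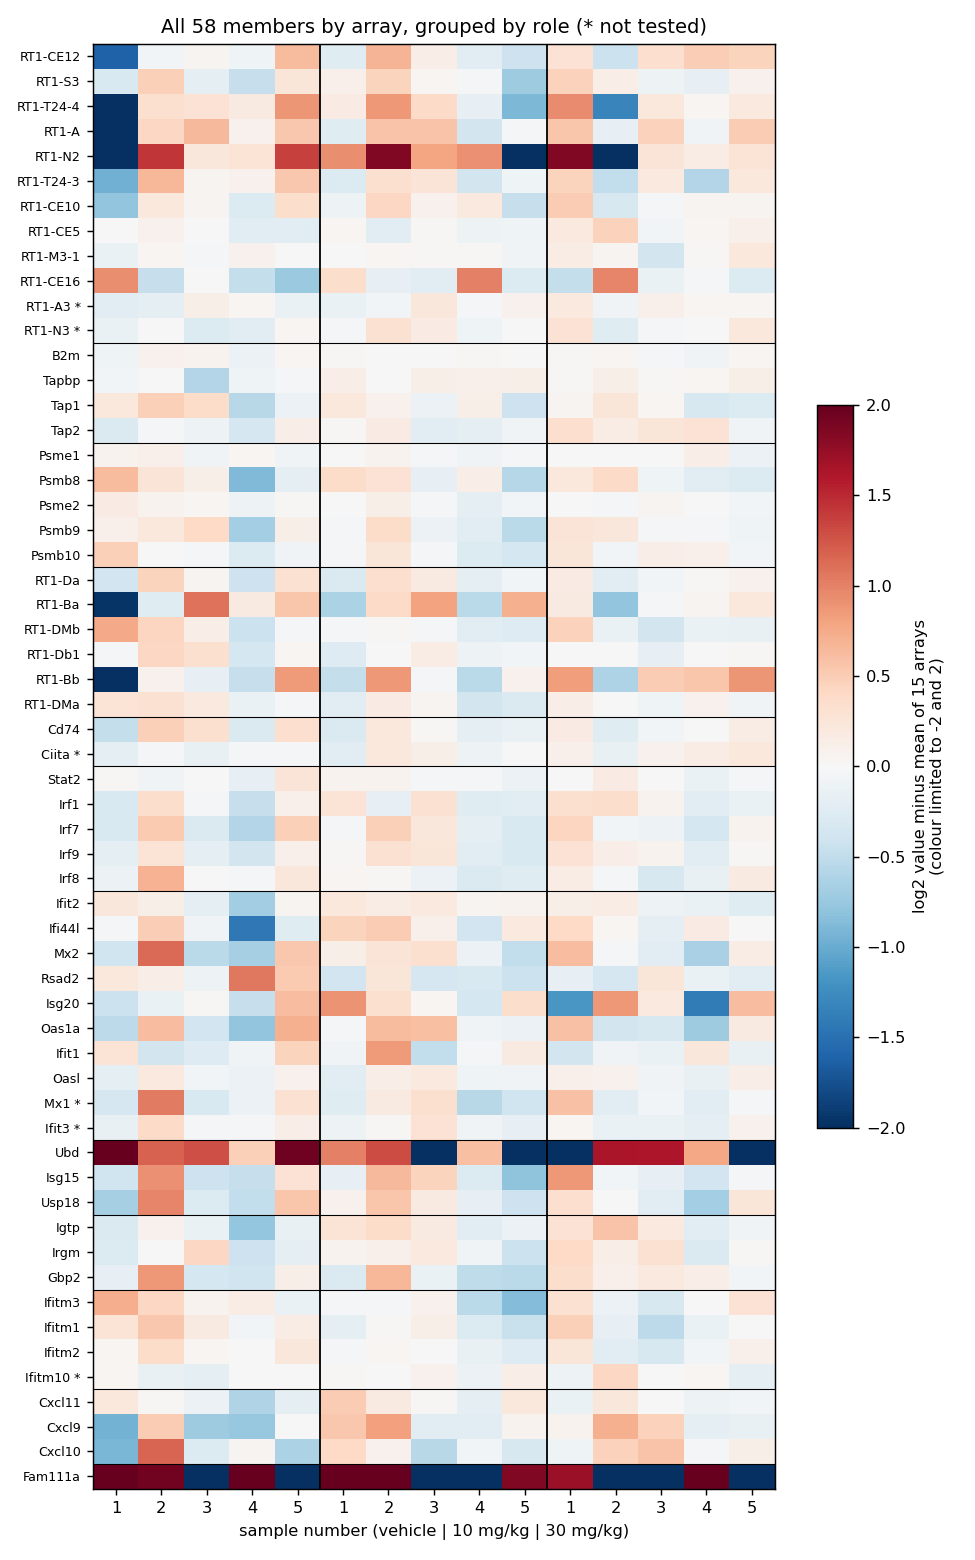
All 58 genes (rows, grouped by role) over the 15 arrays (columns, sample numbers within vehicle, 10 mg/kg and 30 mg/kg), coloured by the log2 value minus the gene's mean over 15 arrays and limited to -2 and 2. Vehicle sample 2, 10 mg/kg sample 2 and 30 mg/kg sample 1 are mostly red and vehicle sample 4 and 10 mg/kg sample 5 mostly blue, while B2m, Psme1, Psme2 and Stat2 are nearly white throughout.

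The spread was partly shared: in each group 1 sample was the highest, and another the lowest, in more of the members than of all genes. Vehicle sample 2 was the highest of its group in 27 of 52 genes, 10 mg/kg sample 2 in 32 and 30 mg/kg sample 1 in 25, which is 51.9%, 61.5% and 48.1%. Over all 9540 genes the same arrays were highest in 20.3%, 16.8% and 19.2%. Vehicle sample 4 was the lowest of its group in 30 of 52 genes, 10 mg/kg sample 5 in 26 and 30 mg/kg sample 4 in 17, or 57.7%, 50% and 32.7%, against 20.9%, 22.1% and 25.6% of all genes.

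Among the 19 tested antiviral, ubiquitin-like, GTPase and transcription factor genes, vehicle sample 4 was lowest in 14 and 30 mg/kg sample 4 in 12. In the same 19 genes 10 mg/kg sample 2 was highest in 12 and vehicle sample 2 in 11. Of the 7 class II genes, vehicle sample 2 was highest in 4 and 10 mg/kg sample 2 in 5. The mean log2 value of 10 macrophage markers was also highest of its group in vehicle sample 2 (9.46, range of the group 8.81 to 9.46) and in 30 mg/kg sample 1 (9.38, range 8.53 to 9.38) and lowest in vehicle sample 4 and 10 mg/kg sample 5. At 10 mg/kg it was highest in sample 3 (9.16), with 9.12 in sample 2. At 30 mg/kg it was lowest in sample 3 (8.53), with 8.79 in sample 4. The mean of 12 lymphocyte markers, of which 3 passed the filter, followed the members at the high end alone. It was highest of its group in vehicle sample 2 (5.71), 10 mg/kg sample 2 (5.67) and 30 mg/kg sample 1 (5.69). These samples were most often highest for the members too. The lymphocyte mean was lowest in vehicle sample 1, 10 mg/kg sample 1 and 30 mg/kg sample 3, which were not the samples most often lowest for the members. It ran from 5.5 to 5.71 in vehicle, from 5.43 to 5.67 at 10 mg/kg and from 5.5 to 5.69 at 30 mg/kg. The part of macrophages or lymphocytes in the spread was not tested. The mean of the hepatocyte markers stayed between 13.84 and 14.02 on all arrays.

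Irf7, the transcription factor that amplifies the type I interferon response, followed this order closely. Its values were 8.24, 9.08, 8.27, 7.97 and 9.03 in vehicle samples 1 to 5, 8.53, 9.03, 8.78, 8.38 and 8.26 at 10 mg/kg and 8.99, 8.50, 8.45, 8.21 and 8.62 at 30 mg/kg. Isg15, a ubiquitin-like protein that is attached to other proteins after interferon, had 7.61, 8.92, 7.61, 7.55 and 8.30 in vehicle samples 1 to 5, 7.85, 8.66, 8.46, 7.73 and 7.22 at 10 mg/kg and 8.89, 7.96, 7.85, 7.64 and 7.99 at 30 mg/kg. Both were highest in vehicle sample 2 and low in vehicle sample 4, and their deviations from group means correlated over the 15 arrays with Pearson r = 0.926 and Spearman rho = 0.961 (permutation p = 1e-05 each, the smallest that 100000 permutations can give; adjusted p = 2e-05 over 4 pairs). Without vehicle samples 2 and 5 r was 0.937.

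Cd74, the invariant chain, had values of 10.00, 10.95, 10.80, 10.18 and 10.80 in vehicle samples 1 to 5, 10.19, 10.68, 10.49, 10.30 and 10.34 at 10 mg/kg and 10.63, 10.23, 10.42, 10.47 and 10.63 at 30 mg/kg. RT1-Da, the alpha chain of the class II molecule RT1.D, had 9.63, 10.47, 10.07, 9.60 and 10.31 in vehicle samples 1 to 5, 9.73, 10.34, 10.19, 9.84 and 9.97 at 10 mg/kg and 10.18, 9.81, 9.95, 10.03 and 10.11 at 30 mg/kg. Vehicle samples 1 and 4 were the lowest of their group in both genes, and their deviations correlated with r = 0.950 and rho = 0.957 (permutation p = 1e-05 each, adjusted p = 2e-05). Without vehicle samples 1 and 2 r was 0.943.

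Psmb9, an immunoproteasome subunit, and Tap1 correlated with r = 0.805 and rho = 0.675 (permutation p = 0.0021 and 0.0103, adjusted p = 0.0028 and 0.0138). With vehicle sample 4 and 10 mg/kg sample 5 left out, r was 0.528 (permutation p = 0.0502), so the strength of the relation rests partly on those samples. Gbp2, a guanylate-binding protein that attacks intracellular pathogens, and Igtp, an immunity-related GTPase, correlated with r = 0.623 and rho = 0.611 (permutation p = 0.0227 and 0.0212), and with r = 0.533 (p = 0.0440) with vehicle sample 2 and 10 mg/kg sample 2 left out. A planned pair of B2m and RT1-A2 was not computed, since RT1-A2 had no probe set of its own.

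**Figure D3:**
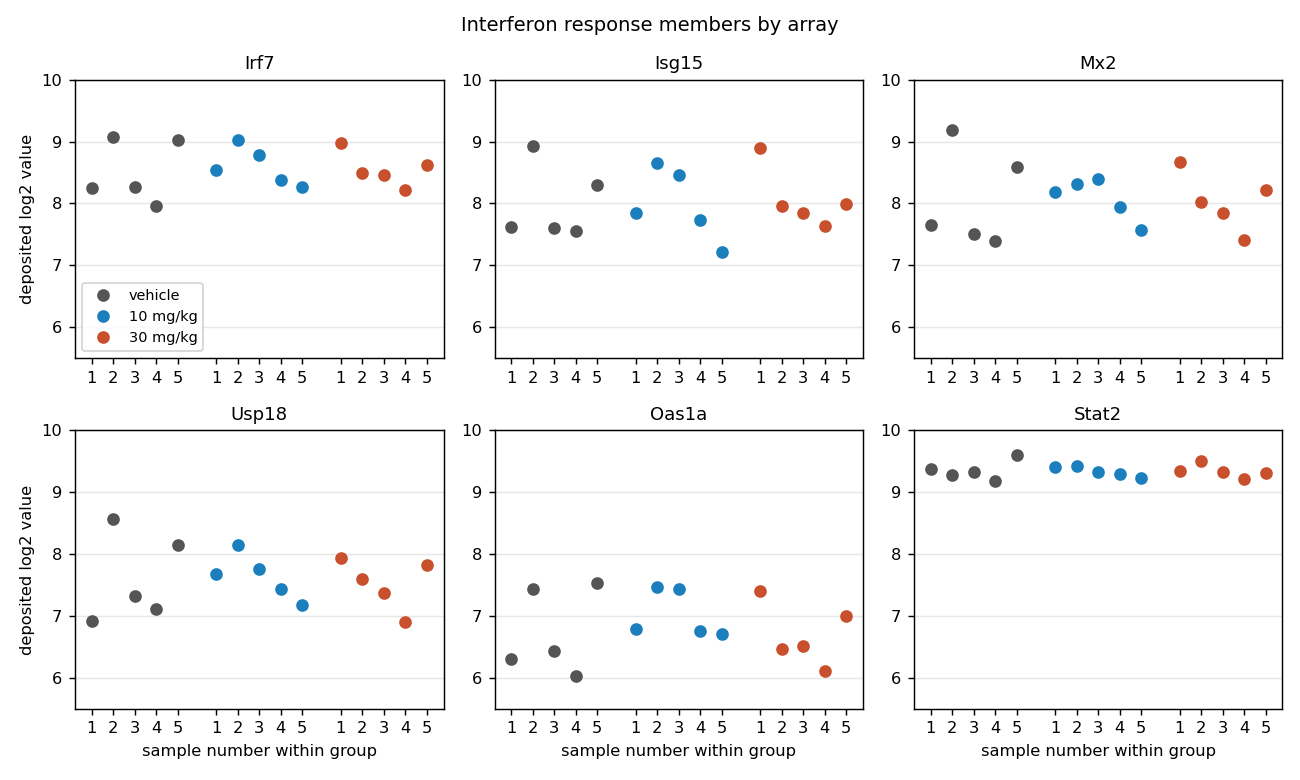
Deposited log2 value (vertical axis) of 6 interferon response genes by sample number within vehicle, 10 mg/kg and 30 mg/kg, each point 1 array. Irf7, Isg15, Mx2, Usp18 and Oas1a rank the samples of a group in much the same order, with vehicle sample 2 above vehicle sample 4, while Stat2 stays between 9.19 and 9.60.

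Many of these genes share an element through which interferon acts. Part of the list was chosen as known targets of interferon, so a share above that of all windows follows in part from the choice. The ISRE core was searched as GAAANNGAAA on both strands in RefSeq promoter windows (build GRCr8, 250 bases before to 50 from the start of the gene), and GAS as TTCNNNGAA, which reads the same on both strands. A window was at hand for 49 of the 58 genes. The ISRE core was in 21 of 49 (42.9%), against 1034 of all 27457 windows (3.77%), and GAS was in 12 of 49 (24.5%), against 8.68%. By role, the ISRE core was in 4 of 4 genes of class I loading, 3 of 3 GTPases, 5 of 7 antiviral effectors, 3 of 5 immunoproteasome genes, 2 of 11 class I heavy chains and 0 of 5 class II chains. It was also in 2 of 3 transmembrane proteins, 1 of 3 chemokines and 1 of 5 transcription factors (Irf7), and not in the window of Cd74. The windows of Ubd, Fam111a, RT1-N2 and RT1-Bb held neither motif, and in no member did the 2 motifs overlap. These are matches of letters, not measured binding sites, and a window without a match says only that these letters are not in it.

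Stretches of 100 bases are shown for 8 of these genes to set the element of Irf7, Oas1a and the GTPase genes beside that of the class I loading genes. Capitals mark the ISRE core on either strand and GAS, and each sequence runs in the direction of its gene. On GRCr8 the stretches are chr1:205800038-205800137 on the minus strand (Irf7), chr12:41330366-41330465 on the plus strand (Oas1a), chr10:42874899-42874998 on the plus strand (Igtp), chr10:33742579-33742678 on the minus strand (Irgm), chr2:234005627-234005726 on the plus strand (Gbp2), chr3:129549135-129549234 on the plus strand (B2m), chr20:4668610-4668709 on the minus strand (Tap1) and chr20:4967878-4967977 on the minus strand (Tapbp).
Irf7: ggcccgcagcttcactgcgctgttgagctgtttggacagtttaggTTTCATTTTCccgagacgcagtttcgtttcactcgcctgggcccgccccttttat
Oas1a: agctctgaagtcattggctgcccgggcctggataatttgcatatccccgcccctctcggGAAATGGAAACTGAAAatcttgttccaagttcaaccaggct
Igtp: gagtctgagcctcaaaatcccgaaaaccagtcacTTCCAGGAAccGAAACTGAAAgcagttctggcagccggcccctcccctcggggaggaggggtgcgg
Irgm: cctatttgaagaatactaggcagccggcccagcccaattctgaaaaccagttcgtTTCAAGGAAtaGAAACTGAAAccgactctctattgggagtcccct
Gbp2: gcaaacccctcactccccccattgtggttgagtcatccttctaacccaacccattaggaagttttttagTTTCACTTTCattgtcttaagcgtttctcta
B2m: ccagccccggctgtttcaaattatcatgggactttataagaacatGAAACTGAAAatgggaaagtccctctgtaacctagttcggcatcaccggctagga
Tap1: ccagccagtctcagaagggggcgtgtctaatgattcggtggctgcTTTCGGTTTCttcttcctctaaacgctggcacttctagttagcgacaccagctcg
Tapbp: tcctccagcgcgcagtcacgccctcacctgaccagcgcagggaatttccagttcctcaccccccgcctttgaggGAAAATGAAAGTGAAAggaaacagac
Oas1a, which makes the messenger that activates RNase L, and Tapbp each hold 2 ISRE cores that share bases, and in Igtp and Irgm a GAS lies next to the ISRE core. An ISRE core stands before B2m as well as before Irf7 and Oas1a. By brightest probe set B2m was the steadiest of the 58 genes, while Irf7 and Oas1a spanned 2.17-fold and 2.83-fold. The dimmer B2m probe set was less steady, with values from 11.65 to 12.12.

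The comparisons with vehicle ask whether ACC inhibition moved these genes. At neither dose was any of the 52 tested genes called at an adjusted p under 0.05 by limma, and the lowest adjusted p was 0.206 for 10 mg/kg and 0.196 for 30 mg/kg. Over all 9540 genes 0.105% were called at 10 mg/kg and 0 at 30 mg/kg. An unadjusted p under 0.05 was found for 5 of 52 members at 10 mg/kg, 1 higher and 4 lower, where the share over all genes was 13.3%. At 30 mg/kg there were 5, 4 higher and 1 lower, where it was 16.1%. The exact permutation test per gene gave 4 and 2, and the share over all genes by that test is not given here. By direction, 1.92% of members were higher and 7.69% lower at 10 mg/kg, against 4.49% and 8.79% of all genes, and 7.69% were higher and 1.92% lower at 30 mg/kg, against 5.27% and 10.8%. The median log2 difference of the members was 0.02 for 10 mg/kg and 0.03 for 30 mg/kg, against -0.02 and -0.03 over all genes. With 1 sample left out the members' median ran from -0.05 to 0.10 for 10 mg/kg and from -0.04 to 0.10 for 30 mg/kg, below 0 at both doses when vehicle sample 1 or 4 was left out, so it has no settled sign. Between the doses 0 members were called (lowest adjusted p = 0.851), and 2 had an unadjusted p under 0.05, where the share over all genes was 5.82% (2.57% higher and 3.25% lower). Both were higher at 30 mg/kg. The counts moved with single samples: at 10 mg/kg there were 10 when vehicle sample 4 was left out and 3 when 10 mg/kg sample 5 was, and at 30 mg/kg 3 when vehicle sample 4 was left out and 2 when 30 mg/kg sample 2 was. Shares over all genes with the same samples left out are not given here, so these moves are not read as a result about the members.

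Genes of class I loading had small differences, and Tapbp was the one member whose groups did not overlap. Tapbp, which holds the empty heavy chain at the transporter, had values of 8.62, 8.65, 8.08, 8.58 and 8.63 in vehicle samples 1 to 5, 8.79, 8.66, 8.78, 8.77 and 8.78 at 10 mg/kg and 8.69, 8.78, 8.69, 8.71 and 8.78 at 30 mg/kg. All 5 samples of each dose lay above all 5 of vehicle, the nearest being 8.65 in vehicle and 8.66 at 10 mg/kg. Groups did not overlap in 1 of 52 members at each dose, against 2.44% of all genes at 10 mg/kg and 3.21% at 30 mg/kg, and both doses were set against the same vehicle samples. The mean was 1.19-fold that of vehicle at 10 mg/kg (95% confidence interval 1.04 to 1.35; limma, adjusted p = 0.276) and 1.16-fold at 30 mg/kg (1.02 to 1.33; adjusted p = 0.249). Vehicle sample 3 lay 0.50 log2 units below the next array. Without it the log2 difference was 0.14 in place of 0.25 at 10 mg/kg and 0.11 in place of 0.22 at 30 mg/kg.

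Tap2, a subunit of the peptide transporter, had values of 6.91, 7.16, 7.09, 6.85 and 7.33 in vehicle samples 1 to 5, 7.22, 7.37, 6.97, 7.00 and 7.12 at 10 mg/kg and 7.54, 7.34, 7.44, 7.48 and 7.12 at 30 mg/kg. At 30 mg/kg, 4 of 5 samples lay above every vehicle sample, and the mean was 1.24-fold that of vehicle (1.07 to 1.45; limma, adjusted p = 0.196) and 1.19-fold that at 10 mg/kg (1.02 to 1.38; adjusted p = 0.851). Tap1, the other part of the transporter, had means of 7.99 ± 0.42, 7.89 ± 0.25 and 7.86 ± 0.24 in vehicle and at 10 and 30 mg/kg (SD, n = 5 each). B2m had means of 14.21 in all 3 groups, and its 95% interval at 30 mg/kg ran from 0.933-fold to 1.07-fold. The 5 immunoproteasome genes had log2 differences from -0.14 to 0.02 at 10 mg/kg and from -0.04 to 0.05 at 30 mg/kg.

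Among class I heavy chains, 9 of 10 tested genes had a higher mean at each dose, and 0 of 10 had an unadjusted p under 0.05 at 10 mg/kg and 1 at 30 mg/kg, RT1-CE5. RT1-CE5 had values of 7.25, 7.34, 7.25, 7.03 and 7.05 in vehicle samples 1 to 5, 7.29, 7.04, 7.28, 7.16 and 7.17 at 10 mg/kg and 7.45, 7.71, 7.21, 7.29 and 7.35 at 30 mg/kg. The 30 mg/kg samples overlapped both other groups, and 30 mg/kg sample 2 was the highest of all arrays. Its mean at 30 mg/kg was 1.17-fold that of vehicle (1.02 to 1.33; limma, adjusted p = 0.253) and 1.16-fold that at 10 mg/kg (1.02 to 1.33; adjusted p = 0.851). Its 4 other probe sets were dimmer and did not show this difference, with log2 differences at 30 mg/kg of -0.18, -0.10, -0.08 and 0.03 against 0.22 on the brightest. Over all genes 41.8% had a higher mean at 10 mg/kg and 38.0% at 30 mg/kg. The median log2 difference of the class was 0.14 at both doses, but both rested on vehicle sample 1. Without it 2 of 10 genes had a higher mean at 10 mg/kg and 4 of 10 at 30 mg/kg, and the medians were -0.10 and -0.02.

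Class II genes had means above and below vehicle. Of 6 tested class II chains, 4 had a lower mean at 10 mg/kg and 3 at 30 mg/kg (6 and 5 with vehicle sample 1 left out), and the invariant chain Cd74 differed by -0.15 and -0.07 on the log2 scale (0.03 for 30 mg/kg with vehicle sample 2 left out). RT1-DMa, a chain of the molecule that exchanges the invariant chain for peptide, had values of 6.78, 6.82, 6.70, 6.37 and 6.48 in vehicle samples 1 to 5, 6.29, 6.68, 6.56, 6.15 and 6.22 at 10 mg/kg and 6.64, 6.50, 6.43, 6.60 and 6.43 at 30 mg/kg. The groups overlapped. The vehicle mean was 1.19-fold that at 10 mg/kg (1.02 to 1.40; limma, adjusted p = 0.336) and 1.08-fold that at 30 mg/kg (0.920 to 1.26). Beside this, the median log2 difference of macrophage markers was -0.38 at the low and -0.33 at the high dose, with 9 of 10 lower in mean at each dose and 0 called. At an unadjusted p under 0.05, 5 of 10 were lower at the low and 1 of 10 at the high dose. The shares of all genes that were lower at that level were 8.79% and 10.8%. Over all genes 41.8% had a higher mean at 10 mg/kg and 38.0% at 30 mg/kg. The list mean of the macrophage markers per array ran from 8.81 to 9.46 in vehicle, from 8.55 to 9.16 at 10 mg/kg and from 8.53 to 9.38 at 30 mg/kg. Their part in the class II values was not tested. Ciita, the activator of class II genes, was below the filter, with values from 5.58 to 6.03.

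Antiviral effectors split by gene, with 7 of 8 tested members at a higher mean at 10 mg/kg and 3 of 8 at 30 mg/kg, against 41.8% and 38.0% of all genes. These tallies moved with single samples, from 4 when 10 mg/kg sample 2 was left out to 7 at 10 mg/kg, and from 2 when vehicle sample 1 or 4 was left out to 7 when vehicle sample 5 was left out at 30 mg/kg. Rsad2, which encodes viperin, an enzyme that makes a chain-terminating nucleotide, differed most. Its values were 7.83, 7.77, 7.53, 8.69 and 8.16 in vehicle samples 1 to 5, 7.25, 7.86, 7.28, 7.31 and 7.19 at 10 mg/kg and 7.46, 7.30, 7.87, 7.49 and 7.42 at 30 mg/kg. Vehicle sample 4, the lowest vehicle sample for most of these genes, was the highest of all arrays for Rsad2. The vehicle mean was 1.53-fold that at 10 mg/kg (1.16 to 2.02; limma, adjusted p = 0.206) and 1.40-fold that at 30 mg/kg (1.06 to 1.85; adjusted p = 0.236). Without vehicle sample 4 the log2 difference was -0.44 in place of -0.61 at 10 mg/kg and -0.31 in place of -0.49 at 30 mg/kg.

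Ifit2, an RNA-binding antiviral protein, had values of 9.35, 9.23, 8.93, 8.42 and 9.18 in vehicle samples 1 to 5, 9.32, 9.26, 9.31, 9.18 and 9.19 at 10 mg/kg and 9.24, 9.26, 9.01, 8.98 and 8.88 at 30 mg/kg. Vehicle sample 4 was lowest and vehicle sample 1 highest of all arrays, and the treated samples lay between them. The log2 differences of 0.23 and 0.05 were 0.08 and -0.10 when vehicle sample 4 was left out. Ifit1, of the same family, had means of 6.55 ± 0.35, 6.63 ± 0.49 and 6.44 ± 0.22, and Ifit3 stayed between 4.41 and 4.98 and was not tested. Mx2 had 8.07 ± 0.79, 8.08 ± 0.33 and 8.03 ± 0.47 and Oas1a 6.75 ± 0.69, 7.03 ± 0.38 and 6.70 ± 0.51 in vehicle and at 10 and 30 mg/kg (SD, n = 5 each). Usp18, the protease that removes Isg15 from proteins, had 7.61 ± 0.71, 7.64 ± 0.36 and 7.53 ± 0.41. The differences of these genes were all smaller than the spread within vehicle. The 5 transcription factors had log2 differences between -0.28 and 0.15, the lowest being that of Irf8, a factor of macrophages and dendritic cells, at 10 mg/kg (limma, adjusted p = 0.410; -0.14 with vehicle sample 2 left out).

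Interferon-induced GTPases had higher means at 30 mg/kg in 3 of 3 genes, against 38.0% of all genes. Igtp, which acts on vacuoles that hold pathogens and on lipid droplets in mouse cells, had values of 8.93, 9.30, 9.10, 8.44 and 9.08 in vehicle samples 1 to 5, 9.50, 9.60, 9.41, 9.0 and 9.11 at 10 mg/kg and 9.52, 9.79, 9.42, 9.0 and 9.15 at 30 mg/kg. The groups overlapped, and vehicle sample 4 was the lowest array. The mean was 1.28-fold that of vehicle at 10 mg/kg (0.991 to 1.65; limma, adjusted p = 0.393) and 1.32-fold at 30 mg/kg (1.03 to 1.71; adjusted p = 0.266). With vehicle sample 4 left out the log2 difference for 10 mg/kg was 0.22 in place of 0.35. The difference at 30 mg/kg was set against the same vehicle samples, so its size too rested partly on vehicle sample 4.

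Gbp2 had values of 6.92, 7.94, 6.73, 6.69 and 7.20 in vehicle samples 1 to 5, 6.79, 7.74, 6.95, 6.57 and 6.54 at 10 mg/kg and 7.44, 7.18, 7.27, 7.21 and 7.02 at 30 mg/kg. Its difference was negative at 10 mg/kg, -0.18, and positive at 30 mg/kg, 0.13 on the log2 scale, and neither exceeded the spread within vehicle. Without vehicle sample 2 the difference at 10 mg/kg was 0.03. The mean at 30 mg/kg was 1.24-fold that at 10 mg/kg (0.869 to 1.77; limma, adjusted p = 0.884). Irgm, of the same family as Igtp, had means of 8.88 ± 0.33, 8.95 ± 0.24 and 9.08 ± 0.27 (SD, n = 5 each).

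The interferon-induced transmembrane proteins, which block the entry of viruses at membranes, had a lower mean than vehicle in 3 of 3 tested genes at both doses, and so with any 1 sample left out. Lower means were common: over all genes only 41.8% had a higher mean than vehicle at 10 mg/kg and 38.0% at 30 mg/kg. Both doses were set against the same vehicle samples. Ifitm3 had values of 11.54, 11.23, 10.89, 10.97 and 10.69 in vehicle samples 1 to 5, 10.79, 10.79, 10.90, 10.27 and 9.94 at 10 mg/kg and 11.12, 10.69, 10.49, 10.81 and 11.10 at 30 mg/kg. The 10 mg/kg samples overlapped vehicle, and 10 mg/kg samples 4 and 5 were the lowest of all arrays. The vehicle mean was 1.44-fold that at 10 mg/kg (1.08 to 1.93; limma, adjusted p = 0.289) and 1.17-fold that at 30 mg/kg (0.871 to 1.56). Ifitm1 had values of 10.24, 10.51, 10.16, 9.91 and 10.13 in vehicle samples 1 to 5, 9.77, 10.00, 10.08, 9.70 and 9.52 at 10 mg/kg and 10.45, 9.81, 9.45, 9.84 and 9.98 at 30 mg/kg. The lowest array was 30 mg/kg sample 3, and the groups overlapped. Its vehicle mean was 1.30-fold that at 10 mg/kg (1.02 to 1.64; limma, adjusted p = 0.336) and 1.22-fold that at 30 mg/kg (0.959 to 1.54; adjusted p = 0.401). Ifitm2 differed by -0.21 and -0.18 on the log2 scale. At 30 mg/kg sizes rested partly on single samples, with -0.10 in place of -0.22 for Ifitm3 without vehicle sample 1, and -0.17 in place of -0.28 for Ifitm1 and -0.11 for Ifitm2 without 30 mg/kg sample 3.

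Chemokines of the receptor Cxcr3, which draw activated T cells into tissue, had higher means than vehicle in 3 of 3 genes at both doses, against 41.8% and 38.0% of all genes, with 0 at an unadjusted p under 0.05. With 1 sample left out this fell to 2 of 3 for 5 of 10 samples at 10 mg/kg and, at 30 mg/kg, for vehicle sample 4 alone. Cxcl9 had values of 7.22, 8.68, 7.47, 7.42 and 8.16 in vehicle samples 1 to 5, 8.72, 8.99, 7.97, 7.95 and 8.24 at 10 mg/kg and 8.25, 8.88, 8.64, 8.0 and 8.02 at 30 mg/kg. Vehicle samples 1, 3 and 4 were the lowest of all arrays, and vehicle sample 2 lay within the treated range. Its mean was 1.5-fold that of vehicle at 10 mg/kg (0.986 to 2.28; limma, adjusted p = 0.393) and 1.48-fold at 30 mg/kg (0.975 to 2.25; adjusted p = 0.338), and its second probe set had the same order of vehicle samples at the low end.

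Cxcl11 had values of 10.07, 9.88, 9.72, 9.24 and 9.67 in vehicle samples 1 to 5, 10.36, 10.03, 9.87, 9.65 and 10.06 at 10 mg/kg and 9.71, 10.07, 9.84, 9.75 and 9.79 at 30 mg/kg. Vehicle sample 4 was the lowest array, and the mean was 1.21-fold that of vehicle at 10 mg/kg (0.980 to 1.49) and 1.08-fold at 30 mg/kg (0.878 to 1.34). Without that sample the log2 difference was 0.16 in place of 0.28 for 10 mg/kg and -0.0019 in place of 0.12 for 30 mg/kg. Cxcl10 had means of 6.25 ± 0.81, 6.28 ± 0.37 and 6.57 ± 0.29 (SD, n = 5 each), and vehicle sample 2 was its highest array at 7.53.

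**Figure D4:**
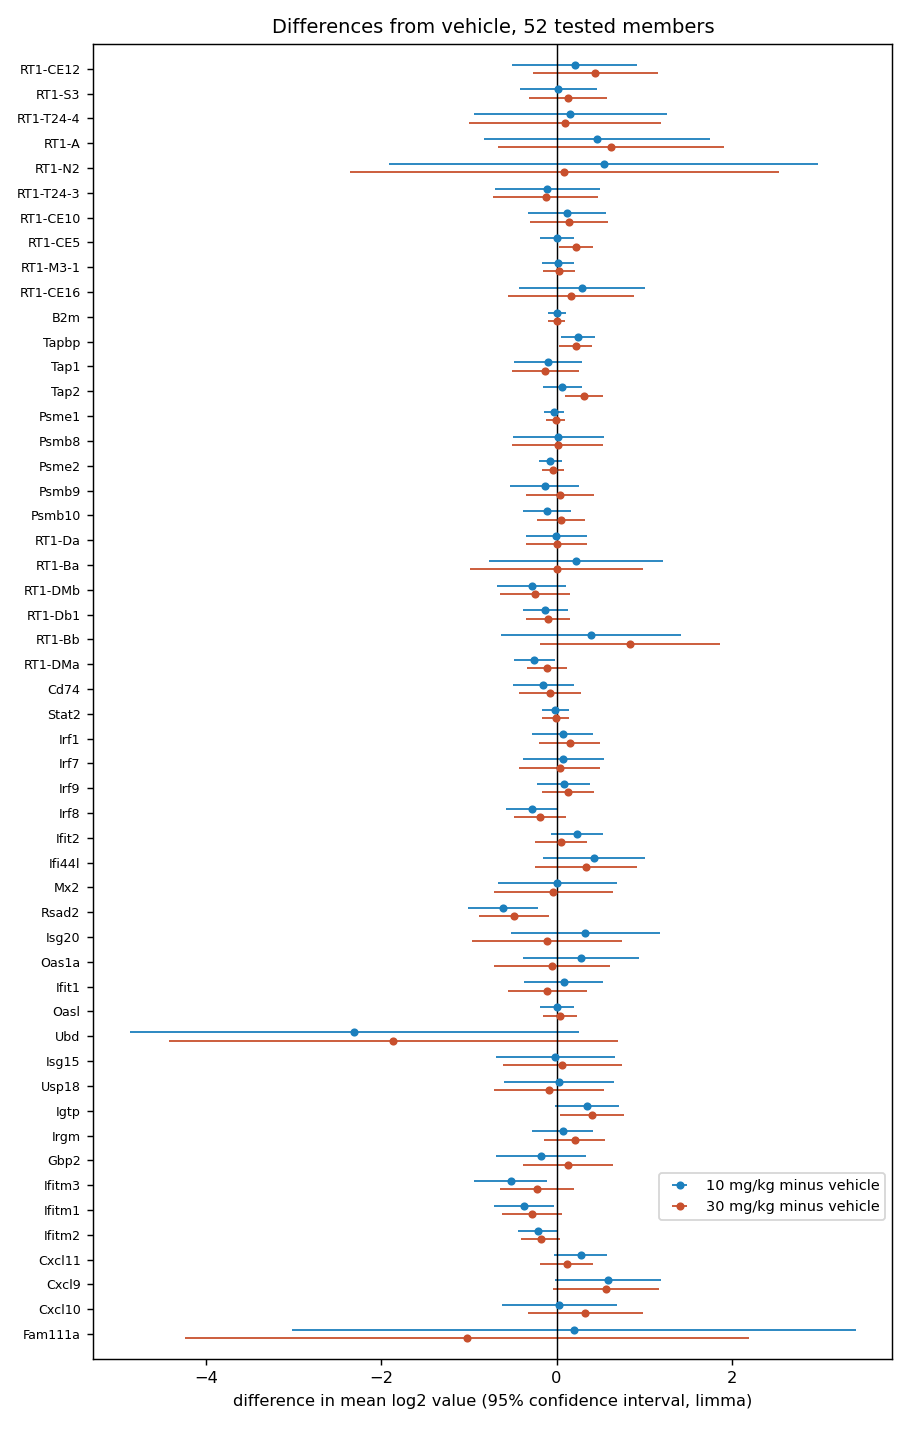
Difference in mean log2 value from vehicle (horizontal axis) for each of the 52 tested genes, at 10 mg/kg (blue) and 30 mg/kg (orange), with 95% confidence intervals from limma. Most points lie near 0, and the widest intervals belong to Fam111a, Ubd and RT1-N2, whose arrays fall into a high and a low class.

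Other genes of the same pathways were looked at from a list of receptors, kinases, sensors, further interferon-stimulated genes and further parts of antigen presentation. Of 50 on the array 45 were tested, and limma called 0 at either dose. An unadjusted p under 0.05 was found for 1 higher and 3 lower at 10 mg/kg and 3 higher and 5 lower genes at 30 mg/kg, where the shares over all genes were 4.49% and 8.79% at 10 mg/kg and 5.27% and 10.8% at 30 mg/kg. Bst2, which tethers budding viruses to the cell, had a mean of 11.17 ± 0.18 at 10 mg/kg against 10.37 ± 0.41 in vehicle (SD, n = 5 each), 1.74-fold (limma, adjusted p = 0.0983), and 1.34-fold that of vehicle at 30 mg/kg (adjusted p = 0.258). Ifngr1, the ligand-binding chain of the interferon gamma receptor, differed by -0.21 on the log2 scale at both doses (limma, adjusted p = 0.196 and 0.169). Ifi30, a reductase that opens antigens for class II presentation, differed by -0.17 at 10 mg/kg and -0.13 at 30 mg/kg (limma, adjusted p = 0.266 and 0.325). Lgmn, an endosomal protease, differed by -0.29 at 10 mg/kg and -0.30 at 30 mg/kg (limma, adjusted p = 0.346 and 0.267). At 30 mg/kg Ifih1, a sensor of viral RNA, differed by 0.27 (adjusted p = 0.207), Trim25, a ubiquitin ligase of RNA sensing, by -0.31 (adjusted p = 0.219) and Socs1, an inhibitor of the kinases, by 0.11 (adjusted p = 0.239). Of the cell type markers, the smallest p-values belonged to Pecam1, an endothelial adhesion molecule, at both doses (log2 differences of -0.30 and -0.30, limma, adjusted p = 0.159 and 0.156).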

How the data were processed

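Gene expression in 15 liver samples was read on Affymetrix rat arrays, 1 per sample, in 3 groups of 5 taken from the sample titles. The deposited values are on a log2 scale, 1 per probe set and array. Tools listed per the submitters' processing notes are RMA, GCRMA 2.12.1 and limma 2.14.7, with no role for each, and it is unknown here whether RMA or GCRMA made the table. Either normalises between arrays, which hides a shift shared by most genes. RMA compresses differences of dim genes, and whether that holds for this table is unknown. Values ran from 2.91 to 15.38, 0 pairs of arrays were identical, and pairwise correlations lay between 0.989 and 0.996. Precision depends on the number of arrays. No scan date was used here.

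Of 31099 probe sets, 57 were controls, 20826 carried 1 symbol in the platform annotation, which can be old, 436 several and 9780 none. The brightest probe set stood for each of 14217 genes, of which 4525 had several, and 9540 passed the filter (at least 5 of 15 values above 6.10). Group means were fitted with limma 3.58.1 (R 4.3.3, lmFit and eBayes) to all 15 arrays, with Benjamini-Hochberg adjustment across these 9540 genes. Folds are powers of 2 of differences in mean log2 value, with 95% intervals. The procedure was tested on simulated data. Correlations used deviations from group means with 100000 permutations within groups, for 4 pairs of pathway partners.

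The members, lists, pairs and tests were chosen with earlier results of these data known. Values of every array are given for genes with a gap of at least 2 log2 units, for up to 6 with the smallest p per comparison and for the brightest of each role, and for others only where said. Irf7 and Isg15 were added as a correlated pair. Alternatives were no filter, a stricter filter, the mean of probe sets, quantile normalisation, centring on array medians, eBayes with trend and robust, only the compared groups, a replicate block, each sample left out, an exact permutation test, and gaps of 1.5 and 3 log2 units. Same-numbered samples of different groups had correlations of their deviations between -0.0706 and 0.195, most of them below 0.1. The numbers were therefore not taken to pair samples.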

Additional observations from a re-analysis of the deposited data

Results flagged for a closer look

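In 23 named genes, each group of 5 samples was checked for 1 value far from the other 4, with Dixon's critical value of 0.71 for 5 samples. Of 69 groups, 8 held such a value. Chance flags about 1 in 20 groups, but some of these genes were named for a gap between arrays, and RT1-A and RT1-N2 hold 3 of the 8, so the count is not set against that rate. RT1-A stood at 6.08 in vehicle sample 1, with the other vehicle samples between 9.62 and 10.19. RT1-N2 stood at 3.92 in vehicle sample 1 and at 5.42 in 10 mg/kg sample 5, with the others at 8.48 or more and 9.05 or more. RT1-Bb stood at 7.15 in 30 mg/kg sample 2, below 8.27, and RT1-CE12 at 11.39 in the same sample, below 12.10. Rsad2 was high in 10 mg/kg sample 2 at 7.86, above 7.31. Tapbp was low in vehicle sample 3 at 8.08, below 8.58, and in 10 mg/kg sample 2 at 8.66, below 8.77.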

How the results depend on the processing

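No member was called in any of 3 comparisons under any of the alternatives run. The 23 named genes gave 1581 refitted differences, all on the same side of the threshold as reported, and 89 had the other sign. Genes called at 10 mg/kg numbered 3 without a filter in place of 10, and between 0 and 26 with 1 sample left out (0 without vehicle samples 2 or 4, 10 mg/kg samples 2, 3, 4 or 5 or 30 mg/kg sample 1; 1 without vehicle sample 1 or 30 mg/kg sample 4; 21 without vehicle sample 5; 26 without 30 mg/kg sample 2). At 30 mg/kg they numbered between 0 and 5 (5 without vehicle sample 5, 1 without vehicle sample 1). Members at an unadjusted p under 0.05 numbered 3 to 10 at 10 mg/kg, 2 to 7 at 30 mg/kg and 0 to 2 between the doses with 1 sample left out. By the exact permutation test they numbered 2 at 30 mg/kg and 1 between the doses, and 1 between the doses with the mean of probe sets. Shares over all genes at that level under these settings are not given here. The number of genes with a gap between arrays stayed between 3 and 5 under all settings, with 3 without vehicle sample 1. The correlation of Gbp2 and Igtp was 0.493 (permutation p = 0.0623) when group means were not removed. The cause of these changes was not tested.

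With the replicate number as a block, 0 genes were called at 10 mg/kg. In that fit 9 members had an unadjusted p under 0.05 at 10 mg/kg and 1 between the doses. The share over all genes in the same fit is not given here, so these counts are not read as a result about the members. Same-numbered samples did not deviate together, and 3 of 15 arrays correlated best with an array of their own number.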
